A study of Mus musculus with 8 samples.

Results

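The genes described here encode 10 proteins that copy, transcribe and mature the genome of mitochondria: Polg, Polg2, Twnk, Ssbp1, Top1mt, Polrmt, Tfb1m, Tfb2m, Mterf4 and Lrpprc. They were chosen by name for what their proteins do, with earlier results of these data known, and make up 10 of 55471 gene rows in the count tables. All 10 passed the filter on low counts and were among the 15084 genes tested.

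Transcripts were sequenced from pieces of mouse heart in 4 libraries of wild-type (WT) males and 4 of TAZG197V males, all 14 weeks of age. TAZG197V males are hemizygous for a patient-derived glycine to valine change in Taz, the X-linked gene for Tafazzin, the enzyme that remodels the mitochondrial lipid cardiolipin. The allele was made by CRISPR/Cas9 editing of C57BL/6N zygotes, founders were crossed with C57BL6/J, and it is present in every tissue rather than in heart muscle alone. No mouse was treated. The comparison asks which heart transcripts differ when Tafazzin is defective.

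The mitochondrial genome is a small circle that is copied by its own replisome. In it the helicase Twinkle opens the duplex, a single-stranded DNA-binding protein coats the exposed strand and DNA polymerase gamma extends the new one. A phage-like RNA polymerase transcribes both strands as long precursors, which are cut into the messenger, transfer and ribosomal RNAs of the organelle. The heart has a dense population of mitochondria, and inherited defects of several of these proteins cause mitochondrial DNA depletion or cardiomyopathy in patients.

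Total counts ranged from 23055689 to 36301031 per library, and the mitochondrially encoded genes took 21.6% to 24.6% of them. Calls required an adjusted p under 0.05 (edgeR quasi-likelihood test, Benjamini-Hochberg over all genes tested), a fitted change beyond 0.20 on the log2 scale in either direction and a mean scaled count of at least 50. Taz itself measured 58.7 to 63.8 CPM (counts scaled to library size with the TMM factors of edgeR) in WT and 44.3 to 50.4 CPM in TAZG197V and was called lower (log2 fold change -0.37, adjusted p = 0.00126), without overlap, and in all 18 alternative fits. Counts per gene do not show the edited base itself. The 6 ventricular cardiomyocyte markers were abundant in every library, with a summed level of 55228 to 63726 CPM in WT and 48189.6 to 51572 CPM in TAZG197V, and 2 of the 6 were called lower. So were 3 of 5 fibroblast markers and 2 of 5 endothelial markers, with 0 called higher in these 3 lists, against 15.0% of all genes tested called lower. In bulk tissue, fewer cells of a type and less RNA per cell cannot be told apart. Fibroblast markers summed to 1087 to 1721 CPM in WT and 751 to 1082 CPM in TAZG197V, and endothelial markers to 651 to 899 CPM and 503 to 702 CPM. Library WT 4 stood apart with 55072 CPM of red cell markers, against 227 to 1065 CPM in the other libraries. Both libraries numbered 4 carried more brain markers, 174 and 298 CPM against 36.5 to 74.8 CPM, and were separated from the rest by the second principal component. Library WT 2 held 1093 CPM of atrial markers against 4.24 to 130.02 CPM elsewhere. The part of these differences in the values below was not tested, so results are also given without the libraries numbered 4.

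Of the 10 genes 1 was called, Twnk, which encodes the helicase and was 15.3% higher in TAZG197V. The interval of the change lay inside the fold cut-off for Polg alone, and the intervals of the other 8 uncalled genes also held changes past it. By this rule 33.4% of all genes tested were called, 18.5% higher and 15.0% lower, so 1 of 10 called higher and 0 of 10 called lower was no more than the share over all genes. DESeq2 called 0 of the 10, and an unadjusted p under 0.05 was given to 3 of them by edgeR and to 2 by DESeq2. The fitted change was above 0 for 9 of the 10 genes, against 48.8% of all genes tested. It was also above 0 for 64.6% of the 48 related genes described below, among them 8 of 10 other replication and nucleoid genes. The median log2 fold change of the 10 members was 0.14, with a range from -0.01 to 0.32, and the median over all genes tested was -0.01. The WT and TAZG197V values did not overlap for 1 of the 10, against 33.2% of all genes tested. Without the libraries numbered 4 the genes called were Twnk and Top1mt, 2 of 10 against 34.0% of the genes tested in that fit, and the median log2 fold change of the 10 was 0.17.

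**Figure D1:**
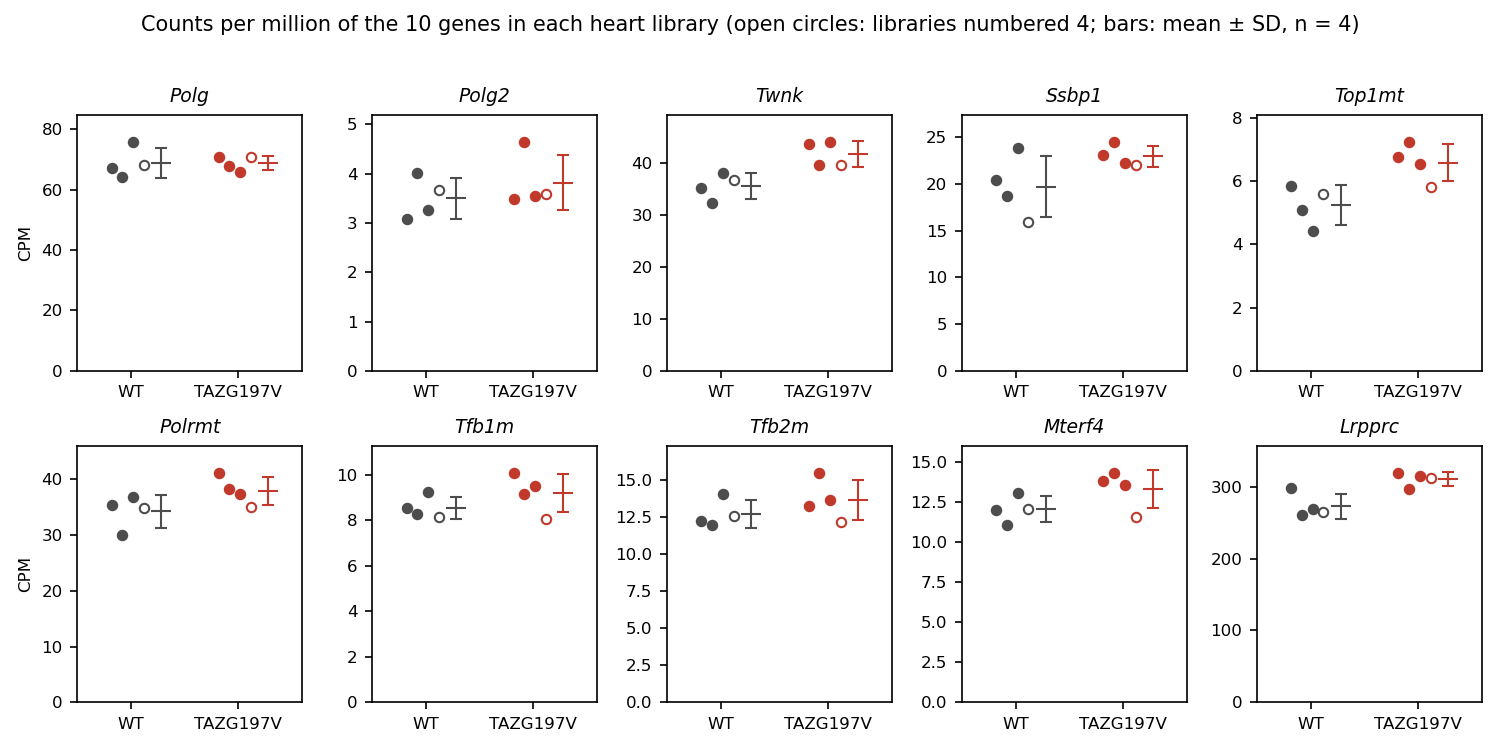
CPM of each gene (vertical axes, starting at 0) in the 4 WT (grey) and 4 TAZG197V (red) libraries, with open circles for the libraries numbered 4 and bars for the mean ± SD. The Twnk values of WT end at 38.1 CPM, below the lowest TAZG197V value of 39.6 CPM, and the values of the other genes overlap between genotypes.

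The order of the levels, in CPM per kilobase of merged exon, was led by Lrpprc at 32.1 ± 2.06 (SD, n = 4 WT libraries). Twnk followed at 8.87 ± 0.62, Polrmt at 7.31 ± 0.63, Polg at 6.40 ± 0.46 and Tfb2m at 4.54 ± 0.33 CPM per kilobase. The WT ranges of Twnk, 8.05 to 9.50, and Polrmt, 6.42 to 7.87 CPM per kilobase, did not overlap, whereas that of Polg, 5.97 to 7.05 CPM per kilobase, overlapped that of Polrmt. Top1mt, Tfb1m, Ssbp1 and Mterf4 lay between 2.28 and 2.56 CPM per kilobase and could not be ordered, since their WT ranges overlapped. Polg2 was lowest at 0.80 ± 0.10 CPM per kilobase. Merged exons count every annotated isoform, and per kilobase of the longest coding transcript Lrpprc reached 62.1, Twnk 10.2, Polrmt 9.12, Polg 8.78, Tfb1m 6.10, Tfb2m 5.20, Ssbp1 4.49, Mterf4 3.89, Top1mt 2.75 and Polg2 2.33 CPM per kilobase in WT. Under both lengths the first 4 genes stood in the same order and Polg2 came last, whereas the order of the middle genes changed. In TAZG197V the means per kilobase of merged exon were 36.5 for Lrpprc, 10.4 for Twnk, 8.10 for Polrmt, 6.40 for Polg and 0.88 for Polg2.

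**Figure D2:**
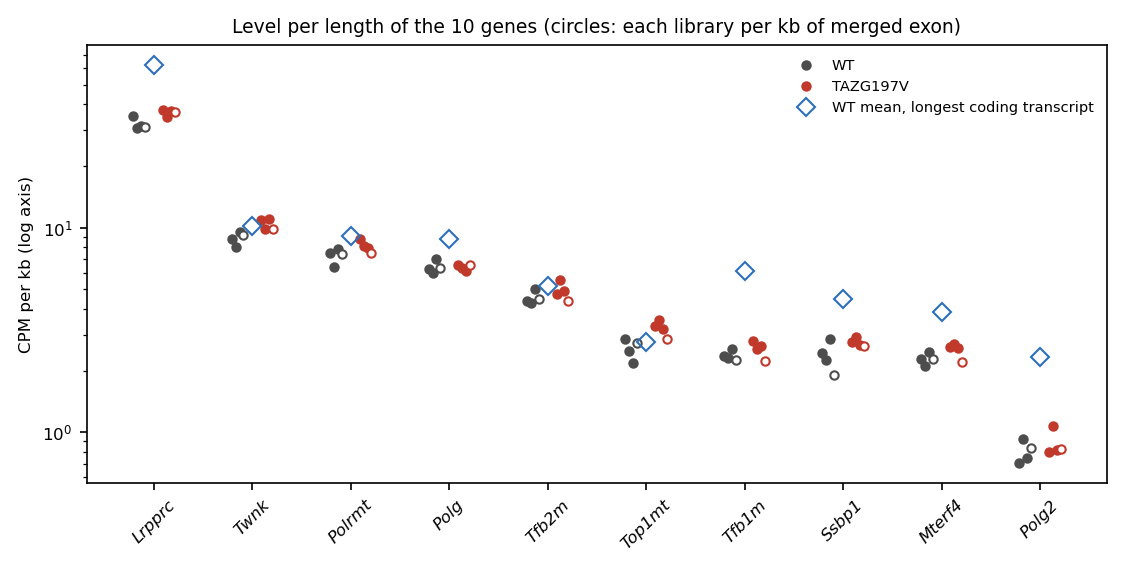
Level of the 10 genes in CPM per kilobase of merged exon on a log axis, ordered by the WT mean, with a circle for each WT (grey) and TAZG197V (red) library, open for those numbered 4, and a blue diamond for the WT mean per kilobase of the longest coding transcript. Lrpprc stands above every other gene and Polg2 below, while Top1mt, Tfb1m, Ssbp1 and Mterf4 share a range of levels.

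Polg encodes the catalytic subunit of DNA polymerase gamma, which synthesises and proofreads mitochondrial DNA, and lies at chr7:79446231-79466362 (minus strand, mm10). It measured 67.2, 64.1, 75.8 and 68.0 CPM in the WT libraries and 70.7, 67.8, 65.8 and 70.8 CPM in the TAZG197V libraries. The TAZG197V values all fell inside the WT range. The log2 fold change was -0.01 with a 95% interval from -0.16 to 0.13 (adjusted p = 0.881), an interval inside the fold cut-off, 0.20 on the log2 scale, in both directions.

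Polg2 encodes the accessory subunit that holds the polymerase on its template (chr11:106768253-106779537, minus strand). Its levels were 3.08, 4.01, 3.26 and 3.66 CPM in WT and 3.49, 4.64, 3.55 and 3.59 CPM in TAZG197V, with TAZG197V 2 above the rest. These values rest on 82 to 172 counts per library. The log2 fold change of 0.15 had an interval from -0.22 to 0.52 (adjusted p = 0.484). This interval also holds changes past the cut-off, so a moderate difference could not be told from none. Without TAZG197V 2 the log2 fold change was 0.06. The parts of low counts and of spread between libraries in the interval were not tested.

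Twnk encodes Twinkle, the helicase that unwinds mitochondrial DNA ahead of the polymerase (chr19:45005663-45012762, plus strand). It measured 35.2, 32.3, 38.1 and 36.8 CPM in WT and 43.7, 39.7, 44.1 and 39.6 CPM in TAZG197V. Every TAZG197V library lay above every WT library, with TAZG197V 4 and WT 3 the nearest. The means were 35.6 ± 2.50 and 41.7 ± 2.46 CPM (SD, n = 4 each), and the log2 fold change was 0.21 (SE 0.06, 95% interval 0.07 to 0.35, adjusted p = 0.0294), just past the fold cut-off of 0.20. Twnk was called in 12 of 18 alternative fits, with adjusted p from 0.0130 to 0.11. The call was lost without WT 1 (adjusted p = 0.11), without WT 2 (0.0812), without TAZG197V 1 (0.0988) and without TAZG197V 3 (0.0845). It was lost as well in DESeq2 (adjusted p = 0.0809) and when DESeq2 size factors moved the log2 fold change to 0.19. The direction was higher in all 18 fits. Of its exon bases 12.6% overlap Mrpl43 on the opposite strand, which was not called (log2 fold change 0.07, adjusted p = 0.618).

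Ssbp1 encodes the protein that coats single-stranded mitochondrial DNA (chr6:40471352-40484700, plus strand). WT libraries held 20.4, 18.7, 23.8 and 15.9 CPM and TAZG197V libraries 23.1, 24.5, 22.3 and 22.0 CPM. The WT values spread more (SD 3.29 CPM) than the TAZG197V values (SD 1.13 CPM), and WT 3 lay inside the TAZG197V range. The log2 fold change was 0.22, past the fold cut-off, with an adjusted p of 0.120. Over 18 alternative fits its log2 fold change ran from 0.07 with the replicate block and surrogate variables together (adjusted p = 0.549) to 0.33 without WT 3 (adjusted p = 0.0285), the single fit in which it was called. Without WT 4, its lowest library, it was 0.14 (adjusted p = 0.243).

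Top1mt encodes the mitochondrial topoisomerase that relaxes the circular genome (chr15:75657035-75678800, minus strand). Levels of Top1mt were 5.85, 5.08, 4.43 and 5.58 CPM in WT and 6.76, 7.23, 6.55 and 5.79 CPM in TAZG197V. Its counts were low, from 114 to 268 per library. The genotypes overlapped by WT 1 and TAZG197V 4 alone. Its log2 fold change of 0.32 (SE 0.13, interval 0.02 to 0.62) was the largest of the 10 but missed the threshold, with an adjusted p of 0.0884. Of 18 alternative fits 2 called it, without TAZG197V 4 (0.41, adjusted p = 0.0403) and without both libraries numbered 4 (0.42, adjusted p = 0.0357). In the other direction it was 0.21 without WT 3 (adjusted p = 0.192) and 0.28 without TAZG197V 2 (adjusted p = 0.229).

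The promoters of Polg and Twnk are shown because, of 4 motifs searched on both strands, each gene holds 1. CCGGAAGT is a site letter string of ETS factors such as GABP, a regulator of respiratory chain genes, and is present in 3.89% of all 32851 RefSeq promoter windows (GRCm38.p6, from 250 bases before to 50 after a transcript start). RefSeq gives Twnk 2 starts, and the second lies inside the gene. The 150 bases printed for each start run from 120 before it to 30 from it, with the motif in capitals, at chr7:79466244-79466393 (minus) for Polg and at chr19:45005543-45005692 and chr19:45006438-45006587 (plus) for Twnk.
Polg: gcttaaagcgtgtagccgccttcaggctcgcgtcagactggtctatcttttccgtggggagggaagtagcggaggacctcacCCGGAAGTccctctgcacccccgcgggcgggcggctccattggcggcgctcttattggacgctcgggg
Twnk, first start: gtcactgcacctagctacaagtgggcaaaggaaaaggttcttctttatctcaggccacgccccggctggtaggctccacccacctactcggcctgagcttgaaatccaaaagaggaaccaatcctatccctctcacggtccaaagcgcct
Twnk, second start: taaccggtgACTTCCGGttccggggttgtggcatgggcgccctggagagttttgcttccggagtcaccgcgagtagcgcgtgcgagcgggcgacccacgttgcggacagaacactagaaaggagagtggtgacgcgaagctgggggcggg
The motif began 38 bases before the start in Polg. In Twnk it lay on the opposite strand, 111 bases before the second start, and no searched motif was in the window of the first. Of these genes Twnk was called and Polg was not.

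Polrmt encodes the mitochondrial RNA polymerase, which also makes the primers for replication (chr10:79736123-79746581, minus strand). It measured 35.3, 30.1, 36.9 and 34.8 CPM in WT and 41.1, 38.3, 37.4 and 35.0 CPM in TAZG197V. TAZG197V 1, 2 and 3 exceeded every WT library, and TAZG197V 4 lay within the WT range. The log2 fold change was 0.12 (SE 0.06, interval -0.02 to 0.26, adjusted p = 0.157).

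Tfb2m encodes the factor that melts the promoter for this polymerase (chr1:179528055-179546267, minus strand). The WT values were 12.2, 12.0, 14.1 and 12.6 CPM and the TAZG197V values 13.3, 15.5, 13.7 and 12.2 CPM, and only TAZG197V 2 lay above the WT range. It had a log2 fold change of 0.08 (interval -0.10 to 0.27, adjusted p = 0.449). Of the 50-base windows in its exons 31.9% occur in the pseudogene Gm1818, so part of its reads could have been left uncounted.

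Tfb1m, the paralogue of Tfb2m, encodes the methyltransferase that modifies the small ribosomal RNA of mitochondria (chr17:3519256-3557781, minus strand). It stood at 8.52, 8.27, 9.24 and 8.17 CPM in WT and 10.1, 9.15, 9.52 and 8.07 CPM in TAZG197V. The highest values were TAZG197V 1 and 3 and the lowest was TAZG197V 4. Its log2 fold change was 0.09 (interval -0.10 to 0.29, adjusted p = 0.420).

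Mterf4 encodes a protein that binds NSUN4 and takes part in assembly of the large mitochondrial ribosomal subunit (chr1:93299211-93305915, minus strand). It held 12.0, 11.1, 13.0 and 12.1 CPM in WT and 13.8, 14.3, 13.6 and 11.6 CPM in TAZG197V. As for Polrmt, TAZG197V 1, 2 and 3 lay above every WT library and TAZG197V 4 within the WT range. Fitted, the change came to 0.12 on the log2 scale (interval -0.04 to 0.28, adjusted p = 0.211). Of its exon bases 35.2% overlap Sned1 on the opposite strand, and Sned1 fell from 23.5 to 5.92 CPM (log2 fold change -1.98, adjusted p = 6e-05). The strand setting of the counting is not given in the sources used here, so reads of the shared bases cannot be told apart.

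Lrpprc encodes the RNA-binding protein that, with Slirp, keeps mitochondrial messenger RNAs stable (chr17:84705247-84790789, minus strand). It measured 299, 260.3, 268 and 264 CPM in WT and 318, 297, 315 and 312 CPM in TAZG197V. Only WT 1 reached into the TAZG197V values, above TAZG197V 2. The log2 fold change was 0.18 (SE 0.07, interval 0.03 to 0.34, adjusted p = 0.0637), under the fold cut-off. Lrpprc was called in 1 of 18 alternative fits, without WT 1 (log2 fold change 0.23, adjusted p = 0.0399). Lrpprc made up 55.1% to 59.9% of the summed level of the 10 genes. This sum ranged from 446 to 498 CPM over the WT libraries and from 518 to 544 CPM over the TAZG197V libraries. Without Lrpprc the ranges were 186 to 219 CPM and 209 to 226 CPM, which overlapped.

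The promoters of Polrmt and Tfb2m are printed because they hold GCGCANGCG, the core of sites for NRF1, a regulator of genes for mitochondrial biogenesis, which is present in 6.25% of all windows. The stretches cover chr10:79746552-79746701 for Polrmt and chr1:179546247-179546396 for Tfb2m, both on the minus strand, with the motif in capitals.
Polrmt: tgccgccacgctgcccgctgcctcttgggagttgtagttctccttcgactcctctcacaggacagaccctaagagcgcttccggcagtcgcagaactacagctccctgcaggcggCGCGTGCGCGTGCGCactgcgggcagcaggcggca
Tfb2m: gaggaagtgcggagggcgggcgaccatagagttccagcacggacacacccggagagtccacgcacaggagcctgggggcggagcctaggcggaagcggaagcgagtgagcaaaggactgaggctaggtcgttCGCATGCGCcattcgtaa
In both the motif lies on the opposite strand. Polrmt held 2 overlapping copies, beginning 5 bases before and 1 base after the start, and in Tfb2m it began 12 bases after the start. The other motifs searched, TGATGNAA of C/EBP-ATF composite sites (3.97% of all windows) and the E-box CACGTG (7.15%), were in none of the 10 windows of the 9 genes that had one. Neither gene with the NRF1 letters was called.

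Values within sequencing lanes are set beside the pooled ones. Lane 7 held the libraries numbered 1 and 2 of each genotype and lane 8 those numbered 3 and 4, with 2 libraries per genotype in each, so no test was made. The mean log2 ratio of TAZG197V to WT was above 0 for 10 of the 10 genes in lane 7 and for 7 of 10 in lane 8. Twnk had ratios of 0.30 and 0.16, Lrpprc of 0.14 and 0.24, Top1mt of 0.36 and 0.31 and Ssbp1 of 0.28 and 0.18 in lanes 7 and 8. Polrmt had 0.28 and 0.01, Tfb1m 0.19 and 0.01, Tfb2m 0.24 and -0.04, and Mterf4 0.29 and -0.0016. Polg had 0.08 and -0.07, and Polg2 0.20 and 0.05. In lane 8 the ratios of Polg, Polg2, Polrmt, Tfb1m, Tfb2m and Mterf4 lay between -0.07 and 0.05. For these genes WT 3 and TAZG197V 3 measured 75.8 and 65.8, 3.26 and 3.55, 36.9 and 37.4, 9.24 and 9.52, 14.1 and 13.7, and 13.0 and 13.6 CPM. The part of single libraries in the lane 8 ratios was not tested. Counted by library, TAZG197V 1 exceeded every WT library for 6 of the 10 genes, TAZG197V 2 for 7, TAZG197V 3 for 6 and TAZG197V 4 for 2. Over the 18 alternative fits the log2 fold change of Polrmt ran from 0.07 to 0.20, of Tfb1m from 0.05 to 0.15, of Tfb2m from 0.02 to 0.16, of Mterf4 from 0.08 to 0.21, of Polg2 from 0.06 to 0.21 and of Lrpprc from 0.16 to 0.23.

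**Figure D3:**
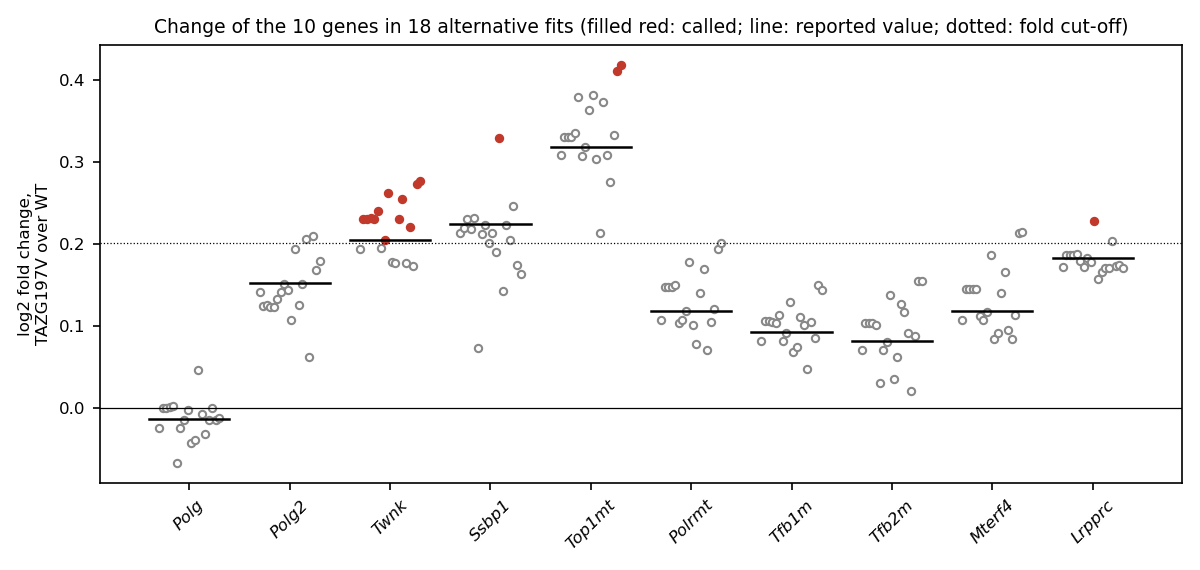
Log2 fold change (TAZG197V over WT) of the 10 genes in the 18 alternative fits, as open circles where not called and filled red circles where called, with a black line for the reported value and a dotted line at the fold cut-off. Twnk is called in 12 fits, Top1mt in 2, Ssbp1 and Lrpprc in 1 each, and the values of Polg lie on both sides of 0.

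Related genes were read from the same fit, in lists chosen with earlier results of these data known. Of 48 other genes for mitochondrial DNA and RNA, 10 were called higher and 3 lower, 27.1% together against 33.4% of all genes tested, and their median log2 fold change was 0.08. Among 10 other replication and nucleoid genes, 1 was called, Atad3a, an inner membrane ATPase of the nucleoid region, which rose from 37.7 to 51.9 CPM (log2 fold change 0.43, SE 0.06, adjusted p = 0.000893). Tfam, which packages mitochondrial DNA and starts its transcription together with Polrmt, measured 45.2 to 51.6 CPM in WT and 42.9 to 50.8 CPM in TAZG197V. The change of Tfam, -0.03 on the log2 scale with an interval from -0.16 to 0.09 (adjusted p = 0.649), lay inside the fold cut-off. The median of that list was 0.08.

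Of 9 genes that supply nucleotides to mitochondria, 2 were called higher and 2 lower, 44.4% against 33.4% of all genes tested, and 5 were not called. Slc25a33, a pyrimidine nucleotide carrier of the inner membrane, measured 21.0, 19.9, 14.7 and 12.8 CPM in WT and 50.9, 57.7, 41.1 and 53.6 CPM in TAZG197V. Its lowest TAZG197V value was well above its highest WT value, and the log2 fold change of 1.65 (SE 0.15, adjusted p = 0.000115) was the largest rise among the 58 genes of the lists. Slc25a36, the second pyrimidine nucleotide carrier, rose from 52.3 to 65.1 CPM (log2 fold change 0.34, adjusted p = 0.00933), and is named outside the naming rule, after its values were seen. Mpv17, an inner membrane protein needed to maintain mitochondrial DNA, fell from 46.3 ± 3.11 to 32.4 ± 2.61 CPM (log2 fold change -0.50, adjusted p = 0.00167), without overlap. Dguok, the kinase that salvages purine deoxynucleosides, fell from 22.2 ± 1.90 to 17.4 ± 1.92 CPM (log2 fold change -0.34, adjusted p = 0.00507), with WT 4 inside the TAZG197V range. These 4 genes were called in all 18 alternative fits. Exon bases shared with other annotated genes made up 14.9% for Slc25a33 (Gm13068) and 14.4% for Mpv17 (Gm29609).

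Of 6 other transcription and termination genes, 1 was called, 16.7% against 33.4% of all genes tested. Mterf2, a termination factor paralogue of Mterf4, fell from 18.5 ± 1.57 to 12.3 ± 1.09 CPM (log2 fold change -0.61, SE 0.08, adjusted p = 0.000775), without overlap, while 22.7% of its exon bases overlap Tmem263 on the opposite strand. Of 6 nuclear regulators, Nrf1, Gabpa, Gabpb1, Ppargc1a, Ppargc1b and Pprc1, 0 were called by edgeR at the adjusted threshold, against the same 33.4%, and 1 had an unadjusted p under 0.05, whereas DESeq2 called 1 lower, the coactivator Ppargc1b (adjusted p = 0.101 in edgeR), named after its values were seen. Ppargc1b measured 21.5, 22.4, 24.8 and 30.6 CPM in WT and 25.1, 21.9, 21.0 and 11.7 CPM in TAZG197V. Its highest and lowest values were those of the libraries numbered 4, the values of the other 6 libraries overlapped, and the log2 ratio was 0.10 in lane 7 and -0.81 in lane 8. The median log2 fold change of the regulators was -0.07.

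In the list of mitochondrial RNA processing and stability, 7 of 17 genes were called higher and 0 lower, or 41.2% against 33.4% of all genes called in either direction. DESeq2 called 5 of the 17, without Trmt10c and Nsun4, or 29.4% against 31.2% of all genes in that fit. Its median log2 fold change was 0.14. Rexo2, the nuclease that degrades the shortest RNA fragments, measured 39.4, 40.3, 44.5 and 35.1 CPM in WT and 65.0, 71.5, 62.7 and 54.8 CPM in TAZG197V. It rose by 0.67 on the log2 scale (SE 0.07, adjusted p = 0.000171), with no overlap. Prorp, the nuclease subunit of mitochondrial RNase P, measured 7.92, 7.45, 8.00 and 5.54 CPM in WT and 11.6, 11.3, 10.8 and 10.3 CPM in TAZG197V. Prorp rose by 0.63 on the log2 scale (SE 0.11, adjusted p = 0.00237), again with no overlap. Elac2, which cuts the 3′ ends of transfer RNAs out of the precursors, rose from 27.1 ± 2.75 to 39.9 ± 2.43 CPM (log2 fold change 0.53, SE 0.07, adjusted p = 0.000565). Rexo2, Prorp and Elac2 were called in all 18 alternative fits.

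The 4 other genes called in that list fall outside the naming rule and were chosen after their values were seen, 2 of them as the further subunits of RNase P. Trmt10c, a methyltransferase subunit of RNase P, had a log2 fold change of 0.23 (adjusted p = 0.0202), and Hsd17b10, its dehydrogenase partner, of 0.25 (adjusted p = 0.0175). Mtpap, the poly(A) polymerase, had 0.29 (adjusted p = 0.0129), and Nsun4, the partner of Mterf4, had 0.20 (adjusted p = 0.0194), at the cut-off. Values overlapped between genotypes for Trmt10c, Hsd17b10 and Nsun4. Trmt10c and Hsd17b10 were called in 13 of 18 alternative fits each, Mtpap in 17 and Nsun4 in 8. Trmt10c lost its call in DESeq2 (adjusted p = 0.0851), its highest value, and without TAZG197V 1 (0.0754) or TAZG197V 3 (0.0581). Hsd17b10 lost it with lane in place of surrogate variables (0.0836), its highest value, and without TAZG197V 2 (0.0628) or TAZG197V 3 (0.0531). Nsun4 lost it in DESeq2 (0.0586) and without WT 1, WT 2, TAZG197V 1 or TAZG197V 2, with adjusted p up to 0.0933. Slirp, the partner of Lrpprc, was not called (1.79 and 2.00 CPM, log2 fold change 0.14, adjusted p = 0.521), and 97.8% of its exon bases overlap Snw1 or Alkbh1, so its level is uncertain.

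**Figure D4:**
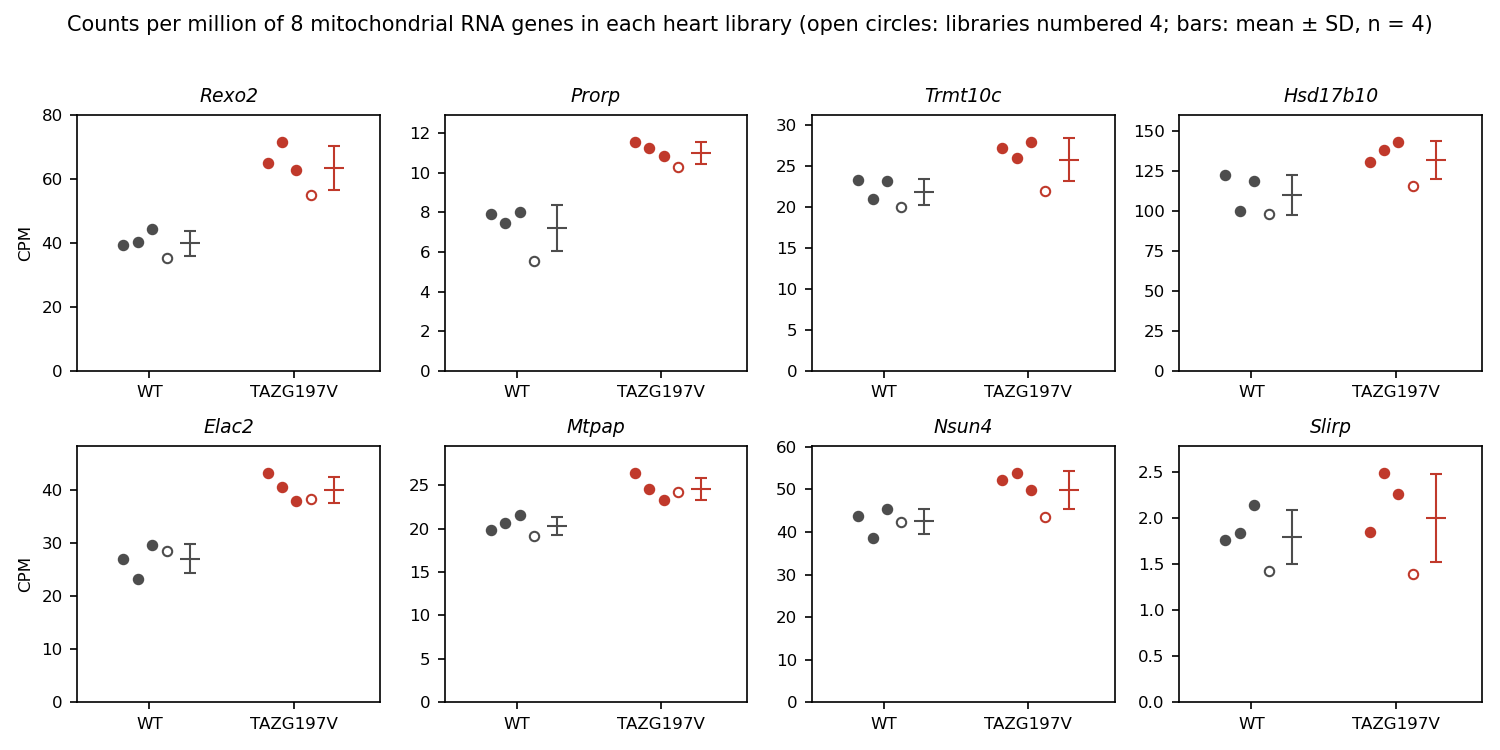
CPM of 8 mitochondrial RNA genes (vertical axes, starting at 0) in the 4 WT (grey) and 4 TAZG197V (red) libraries, with open circles for the libraries numbered 4 and bars for the mean ± SD. Rexo2, Prorp, Elac2 and Mtpap separate the genotypes, and the ranges of Trmt10c, Hsd17b10, Nsun4 and Slirp overlap.

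**Figure D5:**
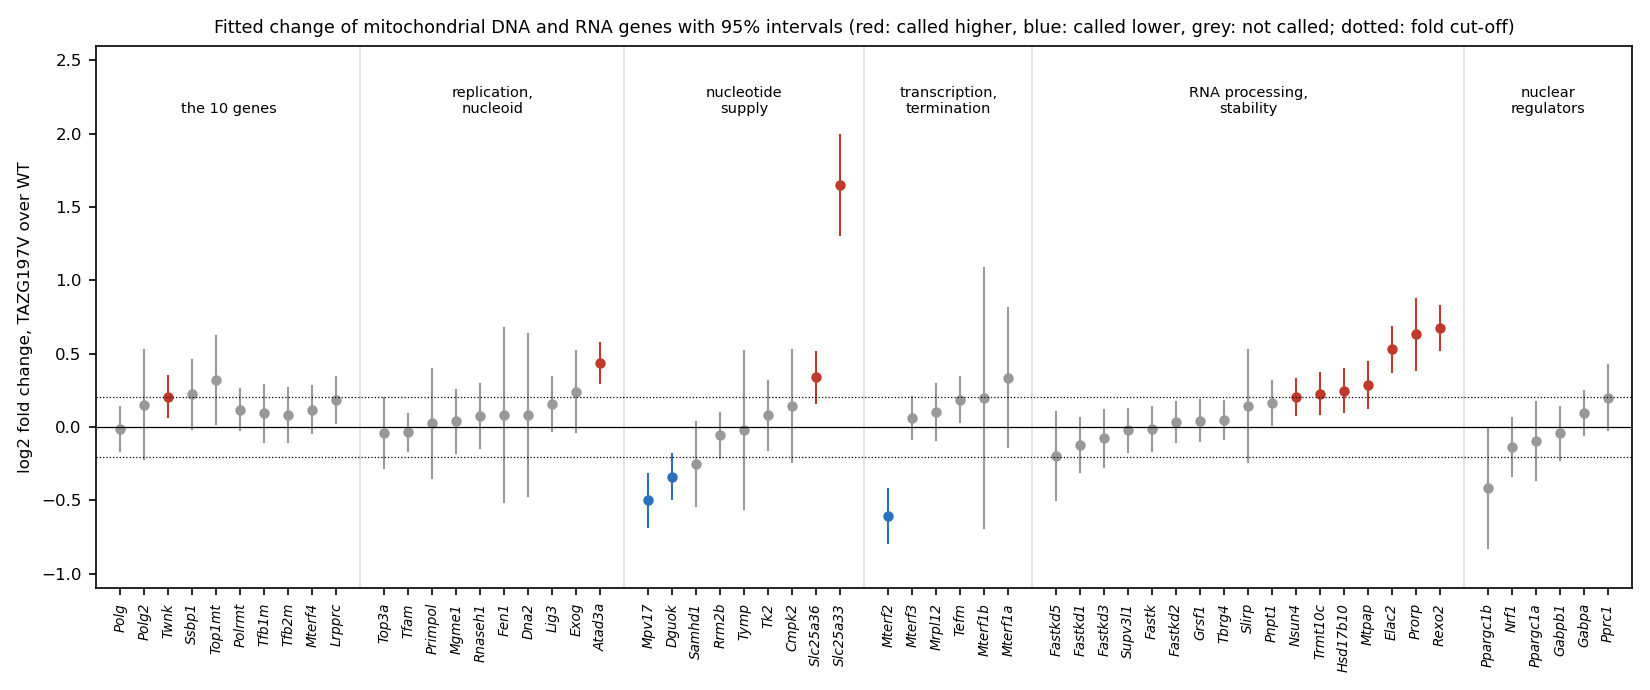
Fitted log2 fold change (TAZG197V over WT) with 95% intervals for the 10 genes and the 48 related genes, grouped by list, in red where called higher, blue where called lower and grey otherwise, with dotted lines at the fold cut-off. The 10 genes lie between -0.01 and 0.32, and Slc25a33 stands above the rest at 1.65.

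The transcripts made by this machinery were read as well. Of 15 mitochondrially encoded genes, 9 were tested, and the other 6 held at most 1 count in any library. Of these 6, mt-Nd3, mt-Nd4l, mt-Co2, mt-Co3 and mt-Atp6 share 98.0% to 100% of their 50-base windows with other annotated genes, so reads that match both may have been left uncounted, while mt-Atp8 shares 0%. Of the 9 tested, 0 were called higher and 2 lower, 22.2% against 33.4% of all genes tested. DESeq2 called 1 higher and 3 lower, 44.4% against 31.2%. mt-Nd2, a subunit of complex I, measured 26442, 21867, 27055 and 25466 CPM in WT and 20061, 17309, 20582 and 21569 CPM in TAZG197V, with all TAZG197V libraries below the WT range. Its log2 fold change was -0.37 (SE 0.11, adjusted p = 0.0257), and it was called in 11 of 17 alternative fits. The call on mt-Nd2 was lost without WT 3, WT 4, TAZG197V 1, TAZG197V 2 or TAZG197V 4, with adjusted p up to 0.0654 when 1 of them was left out. mt-Rnr2, the large ribosomal RNA, measured 6842, 5641, 7769 and 7093 CPM in WT and 4389.85, 3735, 5576 and 6541 CPM in TAZG197V. Its values overlapped, the log2 fold change was -0.48 (SE 0.16, adjusted p = 0.0403), and it was called in 11 of 17 fits, but not without WT 1, WT 3, WT 4, TAZG197V 1 or TAZG197V 2 (adjusted p up to 0.113). The 7 other genes had log2 fold changes from -0.23 for mt-Nd4 to 0.21 for mt-Nd6 and were not called by edgeR, whereas DESeq2 also called mt-Nd4 lower and mt-Nd6 higher. Of the tested genes, mt-Nd4 shares 62.2% and mt-Co1 51.1% of their windows with other annotated genes, so their reads may be uncounted in part. The ribosomal RNAs averaged 2502 CPM (mt-Rnr1) and 6836 CPM (mt-Rnr2) in WT. Every tested messenger RNA was higher, from 8087 CPM for mt-Nd6 to 73699 CPM for mt-Co1. How library preparation treated ribosomal RNA is not given in the sources used here. The counts of mt-Rnr2 may therefore not follow its level in the heart.

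By a measure of likeness, Pearson's r of log2 CPM over the 8 libraries, the genes outside the lists that were most like Polg were Rilpl1 (0.94), Gm38162 (0.93) and Abca2 (0.90), and those most like Polrmt were Gm10010 (0.96), Arfgef2 (0.96) and Trak2 (0.96). None of the 6 was called, and the points share library, depth and genotype, so the values are a description. Gm38162 and Gm10010 averaged under 2 CPM in both genotypes.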

How the data were processed

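RNA was taken from pieces of mouse heart, for 4 WT and 4 TAZG197V libraries. The authors prepared TruSeq libraries, sequenced single-end reads, aligned them to mm10 with STAR 2.7.3a and counted reads over exons with featureCounts of Subread 2.0.0. The deposited values are raw counts per Ensembl gene. How reads with several alignments or on either strand were counted, and with which annotation release, is not given in the sources used here. The labels number the libraries without naming animals, so p-values measure the spread between these libraries, which may in part be technical.

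Each table held 55471 genes and 92 spike-in rows that summed to 0 counts and were left out. Symbols (55230 matched), exons and positions came from GENCODE M21 on GRCm38, the assembly of mm10, and promoters from RefSeq on GRCm38.p6. The lane was read from the deposited data and the age from the study's text. Counts were tested in R 4.3.3 with edgeR 4.0.16 (filterByExpr, TMM, quasi-likelihood F-test, two-sided) on all 8 libraries with 2 surrogate variables from svaseq (sva 3.50.0, genotype protected). Genes were called at an adjusted p under 0.05, a log2 fold change beyond 0.20 (the study's cut-off) and a mean size-factor-scaled count of at least 50. CPM are TMM-scaled, ± gives the SD over 4 libraries, and the SE is the log2 fold change over the square root of F. Totals of 23055689 to 36301031 counts make counting error small except for genes of about 100 counts, and reads without molecular identifiers give no independent molecules. DESeq2 1.42.0 was an alternative with the same surrogate variables. None of the 12 pairs of libraries within a genotype agreed within sampling noise. The procedure was tested on simulated counts.

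The members and lists were chosen with earlier results of these data known. Named were the 10 genes, Tfam and Slirp, up to 3 called genes with the largest change per related list, and the 3 genes most like Polg and Polrmt. Further called genes were named after their values were seen, as stated beside them. Genes that overlap a member, markers and Taz were named as context.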

Additional observations from a re-analysis of the deposited data

Results flagged for a closer look

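Of 74 sets of 4 libraries (named genes, summed markers and the mitochondrial share within each genotype, levels on the log2 scale), 6 had an extreme library past Dixon's 95% critical value, which compares the gap beside it with the whole range, where chance gives about 3.7. Gaps are given as a share of that log2 range. Polg2 was high in TAZG197V 2 (4.64 CPM against 3.49 to 3.59 CPM in the other TAZG197V libraries, 0.895). Dguok was low in WT 4 (19.3 CPM against 23.0 to 23.3 CPM, 0.924). Summed brain markers were high in WT 4 (0.895) and in TAZG197V 4 (0.912), at 174 and 298 CPM. Summed adipocyte markers were high in TAZG197V 4 (0.887), at 5.87 CPM, and summed fibroblast markers in WT 2 (0.858), at 1721 CPM. On the linear scale, tried after seeing the data, 10 sets passed, these 6 with summed atrial markers in WT 2 (0.895) and TAZG197V 2 (0.876), red cell markers in WT 4 (0.987) and adipocyte markers in WT 2 (0.867). Without both libraries numbered 4, Twnk and Top1mt were called among the 10 genes. The part of these libraries in other values was not tested.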

How the results depend on the processing

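Of the 10 genes, 1 was called as reported. None was called in DESeq2, with DESeq2 size factors, at a fold change of at least 1.5 or at an adjusted p under 0.01 (0 each), 2 without both libraries numbered 4, and 0 to 2 when 1 library was left out. The genes called numbered 5043, and 3666 to 5185 under the other fits, with 1831 at a fold change of 1.5 and 3134 at an adjusted p under 0.01. The 13 related genes called became 10 to 15 under the other fits, with 4 at a fold change of 1.5 and 9 at an adjusted p under 0.01. The sign of Polg changed without surrogate variables (7.74e-05), with lane (0.0014) or the replicate block (0.0021) in their place, and over -0.0427 to 0.0458 with 1 library left out. That of Tfam changed without the low-count filter (0.0142), without both libraries numbered 4 (0.0312) and over -0.0630 to 0.0323 with 1 left out. The cause was not tested.

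With the replicate block in place of surrogate variables 4272 genes were called, among them 1 of the 10, Twnk (log2 fold change 0.23, adjusted p = 0.0318), and 12 related genes. With the replicate block and surrogate variables together Twnk was at 0.24 (adjusted p = 0.0371), while Mtpap, Hsd17b10, Nsun4 and mt-Nd2 were not called. The same-numbered libraries correlated in their deviations by 0.28, 0.04, 0.28 and 0.42, and different-numbered ones by -0.46 to 0.32. Since 1 same-numbered correlation was under 0.1, and not every library correlated best with its own number, the numbers were not taken as pairs. Polg2 held 82 to 172 counts per library, and the part of low counts in its values was not tested.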
